A study of Sus scrofa with 16 samples.

Results

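The genes described here encode enzymes and membrane proteins of the lysosome, the acidic compartment in which cells break down proteins, glycans, lipids and sulfated sugars. They were chosen by gene name, for their known place in the organelle, but with earlier results of these data known. Counts of members beside shares of all tested probe sets are therefore a description, and no test of the list is given. The list holds 37 genes, of which 31 had a probe set of their own on the array and 30 passed a filter on low signal, against 6765 genes with a probe set of their own and 4684 genes that passed the filter on the whole array. GAA, NAGLU, CTSA, CTSL, PPT1 and ATP6AP1 had no probe set annotated with that gene alone. MAN2B1, a lysosomal mannosidase, had a probe set that stood between 2.22 and 2.61 on all 16 arrays, close to the lowest value in the data of 2.14, and was not tested.

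Total RNA of small intestinal tissue from preterm piglets of a Landrace x Large white x Duroc cross was measured on Affymetrix porcine arrays. The piglets were delivered from 2 sows by caesarean section at 105 days of gestation. All were fed by vein at first with a little enteral feed, received only enteral feed from day 3, and were killed on day 5. Treated piglets received Ampicillin, Gentamycin and Metronidazol by mouth and by intramuscular injection, and control piglets received saline. Tissue came from the proximal and from the distal small intestine, which gives 4 groups of 4 arrays: antibiotics distal, antibiotics proximal, control distal and control proximal. The number in each sample name was read as that of the animal. By that reading the 16 arrays came from 9 animals, of which 7 gave both segments: 86, 87 and 95 with antibiotics and 83, 88, 89 and 92 with saline. Animal 85 gave only a distal and animal 98 only a proximal array. Whole tissue was measured, so fewer cells of a type and less RNA per cell cannot be told apart.

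Lysosomal hydrolases are made in the endoplasmic reticulum, receive a phosphate tag on their mannose residues in the Golgi, and are carried by receptors to endosomes, where a proton pump acidifies the lumen and the enzymes become active. In the small intestine of newborn pigs, fetal-type enterocytes take up milk proteins by endocytosis into large vacuoles and digest them inside the cell, a property best known from the distal part. Macrophages are another cell type rich in lysosomal enzymes.

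All expression values below are log2 signal intensities after GCRMA normalization, so a difference of 1 is a doubling of signal. Between 45.1% and 46.5% of probe sets stood above 5 on each array. Differences were tested with limma across 11538 probe sets, with Benjamini-Hochberg adjusted p-values and a threshold of 0.05. The p-values rest on the spread between arrays within the groups, pooled over both segments. All arrays were fitted as independent, although 7 animals gave both segments, and the sow was not part of the fit. The tissue labels were compared with markers of the segments. GATA4, a factor of the proximal small intestine, stood at 3.79 to 6.97 on the proximal and at 2.28 to 2.80 on the distal arrays. FABP6, the bile acid binding protein of the ileum, stood at 6.64 to 11.03 on the distal arrays and at 2.28 to 3.49 on 7 of the 8 proximal arrays. On the control proximal array of animal 88 FABP6 stood at 7.40, with GATA4 at 5.63. A position between proximal and distal was read from 120 probe sets that differed between the segments on these arrays. It was 0.044 on that array, -0.079 to 0.044 on the proximal arrays and 0.84 to 1.13 on the distal arrays. The ends of this scale were set by the means of the arrays labelled proximal and distal. These positions therefore cannot check the labels. GUCY2C, the other measured gene of 7 listed distal markers, had a lower mean in the distal segment. The difference was -0.053 in control and -0.55 in treated piglets and did not pass. Results that turn on animal 88 are given without it too.

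The first comparison asked whether the antibiotics altered the lysosomal genes in the distal small intestine. The mean of 26 of the 30 genes was higher with antibiotics than with saline, where 50.4% of all tested probe sets had a higher mean. The median difference was 0.80, against 0.0036 over all tested probe sets. Only NEU1 rose at an adjusted p under 0.05, and no member fell, where 2.12% of all tested probe sets passed in either direction and 1.02% rose. At an unadjusted p under 0.05, 14 members were higher and 1 lower, against 7.85% and 7.95% of all tested probe sets. The 4 antibiotics arrays all stood above the 4 control arrays for 10 members and all below them for 1 member, against 6.4% and 6.31% of all tested probe sets.

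The glycosidases, which remove sugars from glycoproteins and glycolipids, held the largest differences. AGA, which cuts the bond to asparagine and is not a glycosidase in the strict sense, is counted with them throughout. All 7 measured genes of this role had a higher mean with antibiotics in the distal intestine, with a median difference of 1.28. For 5 of them the groups did not overlap, against 6.4% of all tested probe sets in the higher direction. NEU1, the lysosomal sialidase, stood at 10.92, 10.75, 10.80 and 10.66 on the antibiotics distal arrays of animals 85, 86, 87 and 95, and at 7.63, 7.31, 10.07 and 8.87 on the control distal arrays of animals 83, 88, 89 and 92. The treated arrays lay within a narrow band above every control array, while the control arrays spread widely. NEU1 rose by 2.31 ± 0.58 (SE, n = 4 against 4), a 4.97-fold difference, with a limma adjusted p of 0.0489. The call rested on single arrays and settings. It passed in 1 of the 8 fits that left out 1 distal array, the fit without the control array of animal 89 (adjusted p = 0.0124), and the adjusted p was 0.0973 to 0.141 in the other 7; it was 0.153 without the filter on low signal, 0.158 without animal 83 and 0.0767 without animal 88.

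FUCA1, the lysosomal fucosidase, stood at 13.86, 13.39, 13.27 and 14.07 on the antibiotics distal arrays in the same order of animals and at 11.28, 10.56, 12.83 and 12.35 on the control distal arrays. AGA, which frees the glycan from asparagine at the end of glycoprotein breakdown, stood at 11.98, 11.51, 11.51 and 12.20 with antibiotics and at 10.06, 10.42, 11.02 and 10.58 without. GUSB, the beta-glucuronidase, stood at 13.56, 13.32, 13.19 and 14.11 with antibiotics and at 11.24, 10.95, 13.18 and 11.91 without. The groups did not overlap for these 3 genes, although for GUSB the lowest treated and the highest control array were almost level. The differences were 1.89 ± 0.57 (SE) for FUCA1, 1.28 ± 0.39 for AGA and 1.73 ± 0.54 for GUSB, and none passed the threshold (limma adjusted p = 0.107, 0.109 and 0.12). GLB1, the acid beta-galactosidase, stood at 11.72, 11.27, 11.18 and 11.53 with antibiotics and at 10.06, 9.94, 11.07 and 10.78 without. It too did not overlap, with a difference of 0.96 ± 0.34 and an adjusted p of 0.17. HEXA, the alpha chain of hexosaminidase A, and GLA, the alpha-galactosidase, differed by 0.90 ± 0.44 and 0.93 ± 0.66 with overlapping groups.

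**Figure D1:**
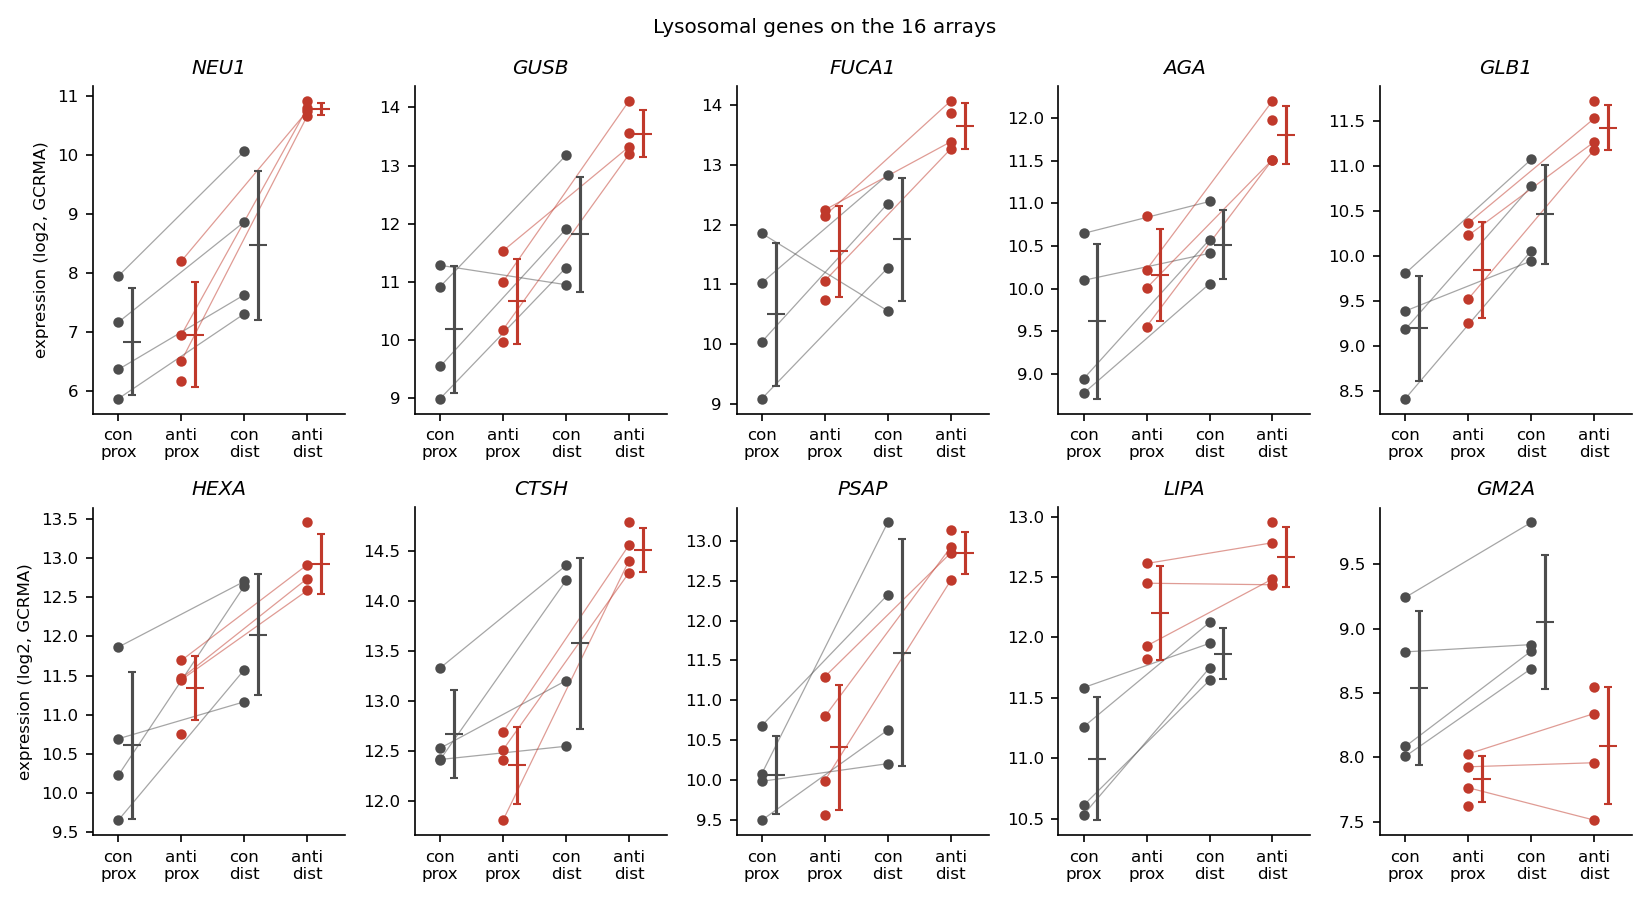
Expression (log2, GCRMA) of 10 lysosomal genes on each of the 16 arrays, by group (con, control; anti, antibiotics; prox, proximal; dist, distal). Points are arrays, thin lines join the 2 segments of an animal, and the bars beside the points give the mean ± SD of 4 arrays. The 4 antibiotics distal arrays of NEU1 sit between 10.66 and 10.92, above all other arrays, and GM2A is the gene with lower values in the antibiotics distal than in the control distal group.

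Of the 2 sulfatases, IDS, which acts on heparan and dermatan sulfate, was the one whose groups separated. It stood at 6.40, 6.29, 6.08 and 6.51 on the antibiotics distal arrays and at 5.83, 5.56, 5.75 and 5.64 on the control distal arrays, a difference of 0.62 ± 0.21 (SE) that did not pass (limma adjusted p = 0.154). ARSA, the arylsulfatase that acts on sulfatide, differed by 0.91 ± 0.72, with control distal arrays from 5.78 to 9.13.

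The proteases showed smaller differences against their spread. Of the 8 measured, 7 had a higher mean with antibiotics in the distal segment, none passed the threshold, and the differences ranged from -0.47 (CTSK, the collagen-degrading cathepsin K) to 1.08 (CTSC, which activates granule proteases). CTSB, CTSD, CTSH and LGMN, endosomal proteases that cut proteins inside the vesicle, differed by 0.76 ± 0.47, 0.84 ± 0.38, 0.93 ± 0.36 and 0.77 ± 0.58 (SE), and TPP1, which trims peptides from their amino end, by 0.28 ± 0.87. CTSZ, a carboxypeptidase, stood at 14.21, 13.75, 13.53 and 13.44 with antibiotics and at 12.52, 12.89, 13.03 and 13.29 without, and was the only protease whose distal groups did not overlap.

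Among the genes of lipid breakdown the members did not share a direction. LIPA, the acid lipase that frees cholesterol and fatty acids, stood at 12.95, 12.44, 12.48 and 12.78 on the antibiotics distal arrays and at 11.64, 11.95, 12.12 and 11.75 on the control distal arrays. GM2A, the activator protein that presents gangliosides to hexosaminidase A, stood at 8.55, 7.96, 8.34 and 7.51 with antibiotics and at 8.69, 8.88, 8.83 and 9.83 without. The groups of both genes were apart, LIPA higher and GM2A lower with antibiotics, by 0.80 ± 0.27 and -0.97 ± 0.32 (SE), and neither passed (limma adjusted p = 0.143 and 0.144). GM2A was the one member with an unadjusted p under 0.05 in the lower direction. PSAP, the precursor of the saposins that help glycosidases act on membrane lipids, differed by 1.25 ± 0.55 with overlapping groups. ASAH1, the acid ceramidase, had the largest spread within groups among the members, with arrays from 2.33 to 7.23.

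The sterol exporters and the membrane proteins of the lysosome differed less. NPC1 and NPC2, which hand cholesterol out of the lysosome, had differences of 0.54 ± 0.38 and 0.67 ± 0.46 (SE). All 5 membrane proteins had a higher mean with antibiotics in the distal segment, with a median difference of 0.55. CD63, a tetraspanin of late endosomes, stood at 14.41, 14.51, 14.29 and 14.65 with antibiotics and at 13.86, 14.05, 13.99 and 14.04 without. LAMP2, a coat protein of the lysosomal membrane, stood at 13.68, 13.43, 13.63 and 13.39 with antibiotics and at 13.20, 13.08, 12.94 and 13.20 without. Neither gene overlapped between the groups and neither passed, with differences of 0.48 ± 0.17 and 0.43 ± 0.16 and adjusted p-values of 0.182 and 0.207. LAMP1, SCARB2, the carrier of beta-glucocerebrosidase, and the cation channel MCOLN1 differed by 0.55, 0.59 and 1.13, each with overlapping groups. Of the 2 proton pump subunits on the list, ATP6V0D1 differed by 0.89 ± 0.37 and ATP6V1A by -0.18 ± 0.40.

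LAMP2, CTSC, NPC2 and FUCA1 were among the 12 members with more than 1 probe set, and for some of these the probe sets differed. The difference in the distal segment was 0.43, 1.01, 0.090 and -0.094 by the 4 probe sets of LAMP2, and 0.67 and 0.22 by the 2 measured probe sets of NPC2. For FUCA1 the second probe set gave 2.12, and for CTSC the 4 probe sets gave 0.69 to 1.44. The probe set with the highest mean was used for each gene. None of the 12 other tested probe sets of these members passed the threshold with antibiotics in the distal segment.

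**Figure D2:**
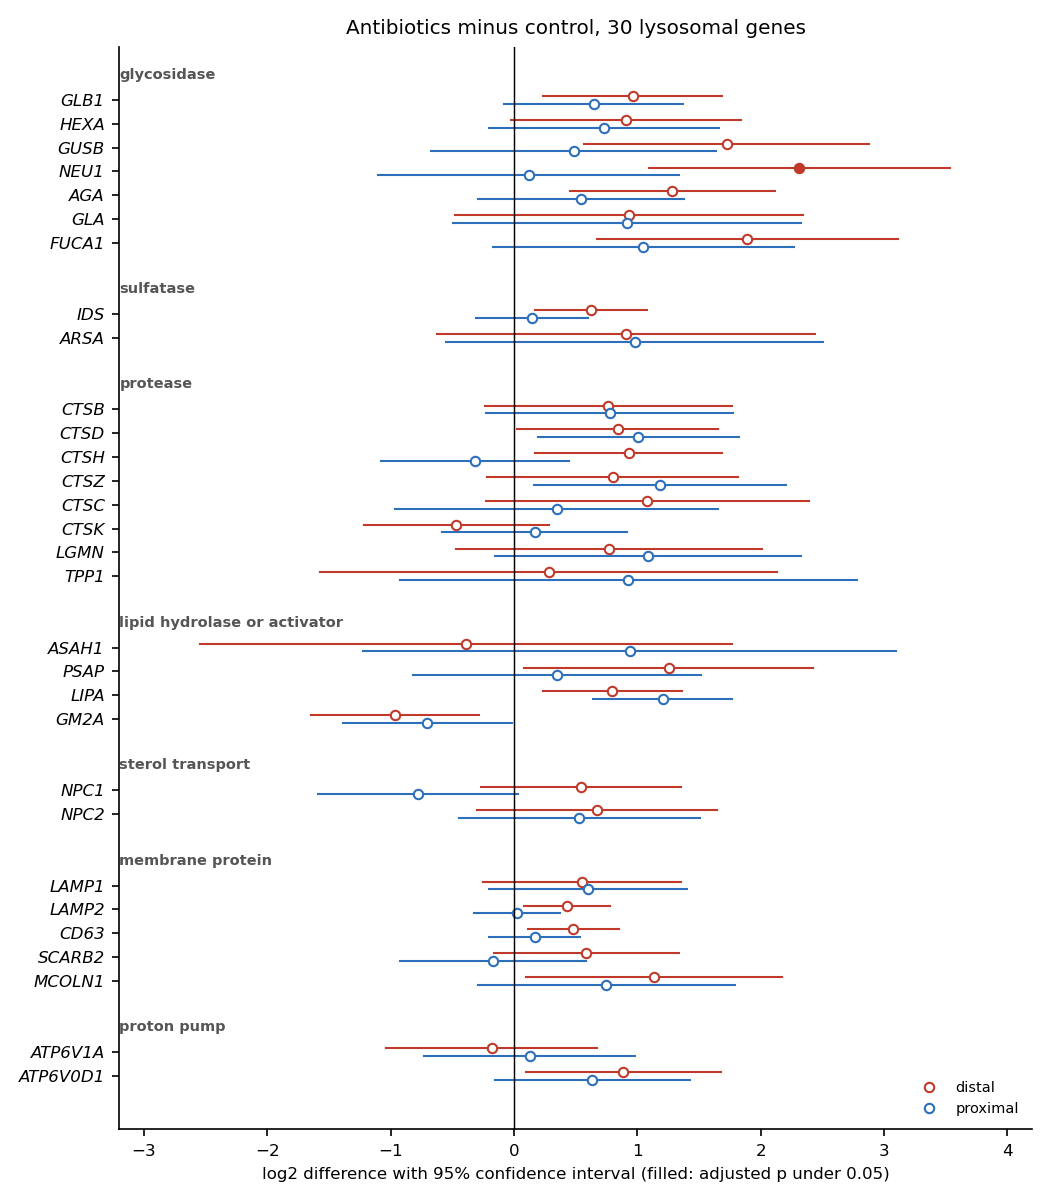
Difference between antibiotics and control (log2) in the distal (red) and proximal (blue) segment for the 30 tested lysosomal genes, grouped by role, with the 95% confidence interval from limma. Filled points passed an adjusted p of 0.05, which NEU1 in the distal segment did alone, at 2.31. The points lie right of 0 for 26 of 30 genes in each segment.

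The 4 control distal arrays were not alike for these genes. On the arrays of animals 89 and 92, 26 and 27 of the 30 members stood above their mean over all 16 arrays, and on those of animals 83 and 88 only 7 and 5 did. The antibiotics distal arrays had 26 to 29 members above that mean. CTSB, for example, stood at 14.85 and 14.48 on the control distal arrays of animals 89 and 92, within or above the range of 14.41 to 14.76 of the treated arrays, and at 13.33 and 12.86 on those of animals 83 and 88. FABP6 ran the other way among these 4 arrays, at 11.03 and 10.17 for animals 83 and 88 and at 7.32 and 6.64 for animals 89 and 92. The position read from the 120 probe sets was 0.97 and 0.84 on the control distal arrays of animals 83 and 88. It was 1.13 and 1.02 on those of animals 89 and 92. When each array's position was included in the limma fit, NEU1 alone of the members was called with antibiotics in the distal segment. That fit called 2.44% of all tested probe sets. The part of the uneven levels of FABP6 and of the members among these 4 arrays in the result was not tested. The SD within the group was smaller with antibiotics than with saline for 22 of 30 members in the distal segment, against 59.8% of all tested probe sets, with a median SD of 0.33 against 0.70 over the members and of 0.32 against 0.38 over all tested probe sets.

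With arrays weighted by their quality, limma called 14 members in the distal segment, 13 higher and GM2A lower, where it called 14.4% of all tested probe sets. Those higher were GLB1, GUSB, NEU1, AGA, FUCA1, IDS, CTSD, CTSH, PSAP, LIPA, CD63, MCOLN1 and ATP6V0D1. With only the 8 distal arrays in the fit, it called 2 members, one of them AGA (adjusted p = 0.0317), and 3.73% of all tested probe sets.

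Markers of cell types were read on the same distal arrays. Of 18 listed macrophage and monocyte markers, 12 had a probe set and 6 were measured, all 6 with a lower mean with antibiotics in the distal segment, and CD163 and C1QC fell. The mean level of these 6 genes was 5.62 to 6.75 on the antibiotics distal arrays and 8.24 to 8.55 on the control distal arrays, and MARCO stood at the lowest value, 2.14, on all 16 arrays. Of 12 listed neutrophil markers 2 were measured, S100A9 and NCF1, and both fell in the distal segment, with a mean level of 3.06 to 3.33 against 5.71 to 8.31. CTSS, a cathepsin of antigen-presenting cells that is not among the 37 genes, stood at 13.64 ± 0.14 (SD, n = 4) with antibiotics and at 14.34 ± 0.33 without, a difference of -0.70 ± 0.26 (SE) that did not pass (limma adjusted p = 0.201). The mean level of the 12 epithelial markers was 12.40 to 12.69 on the antibiotics distal and 12.71 to 13.30 on the control distal arrays. Of the 12, 10 had a lower mean and none passed. At an unadjusted p under 0.05 there were 4, against 15.8% of all tested probe sets in either direction. The part of these markers in the distal result was not tested.

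In the proximal small intestine the same comparison gave no member past the threshold by limma, where 0.147% of all tested probe sets passed. At an unadjusted p under 0.05, 3 members were higher and 1 lower, against 5.57% and 7.28% of all tested probe sets. With array quality weights 4 passed (GLB1, CTSD, CTSZ and LIPA), all higher, where 8.24% of all tested probe sets did. The mean was again higher with antibiotics for 26 of 30 members, where 43.2% of all tested probe sets had a higher mean, and the median difference was 0.57, against -0.066 over all tested probe sets. Among leukocyte markers, of the 2 neutrophil markers S100A9 fell (-5.79, limma adjusted p = 0.0435) and NCF1 did not pass (-0.70, adjusted p = 0.385), with a mean level of 3.17 to 4.52 with antibiotics and 6.10 to 7.91 without. Of the 6 macrophage markers 4 had a lower mean and none passed (2 at an unadjusted p under 0.05), with a mean level of 6.48 to 8.17 against 8.02 to 9.03. The mean level of the 12 epithelial markers was 13.13 to 13.76 against 13.07 to 13.44, and none passed (3 at an unadjusted p under 0.05). The part of these markers in the proximal result was not tested.

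LIPA showed the clearest separation there. It stood at 12.45, 11.93, 12.61 and 11.82 on the antibiotics proximal arrays of animals 86, 87, 95 and 98, and at 10.61, 11.58, 11.26 and 10.53 on the control proximal arrays of animals 83, 88, 89 and 92. It was the only member whose proximal groups did not overlap, where 3.05% of all tested probe sets did not overlap in either direction, and the difference was 1.20 ± 0.27 (SE; limma adjusted p = 0.0865). Without the control proximal array of animal 88, LIPA and CTSZ passed (limma adjusted p = 0.00878 and 0.0499), where 4.82% of all tested probe sets did. Without the antibiotics proximal array of animal 98, LIPA alone of the members passed (0.0478), where 0.537% of all tested probe sets did. LIPA alone also passed without both arrays of animal 88 (0.0111), where 4.58% did. With all arrays in the fit 0.147% of all tested probe sets passed.

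CTSD, the aspartic protease of the lysosome, stood at 8.80, 8.59, 8.16 and 6.90 on the antibiotics proximal and at 6.69, 7.10, 7.18 and 7.46 on the control proximal arrays. CTSZ stood at 13.70, 13.42, 13.34 and 12.98 against 11.21, 13.48, 13.22 and 10.79. For CTSD the array of animal 98 lay among the controls, and for CTSZ the control arrays of animals 88 and 89 lay among the treated ones. The differences were 1.01 ± 0.38 and 1.18 ± 0.48 (SE), with adjusted p-values of 0.301 and 0.331. GM2A stood at 7.93, 8.03, 7.76 and 7.62 with antibiotics and at 8.01, 8.82, 8.09 and 9.24 without, a difference of -0.70 ± 0.32 (adjusted p = 0.376) in the same direction as in the distal segment. NEU1 differed by 0.12 ± 0.58 in the proximal segment, with values of 8.20, 6.95, 6.51 and 6.16 against 6.36, 5.87, 7.95 and 7.17.

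The control proximal arrays were uneven too. On the array of animal 83 only 1 of the 30 members stood above its mean over all arrays and the median deviation was -1.78, against -0.96, -0.32 and -0.30 for animals 92, 88 and 89. Without the arrays of animal 83 the median difference in the proximal segment was 0.21.

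Whether the antibiotic difference was unlike in the 2 segments was tested as the difference of the 2 differences. No member passed by limma, with or without array quality weights, where 1.82% and 0.191% of all tested probe sets passed, in that order. At an unadjusted p under 0.05, 3 members had a larger difference in the distal segment and none a smaller one, against 3.43% and 3.19% of all tested probe sets. These were NEU1 (2.19 ± 0.81, SE), NPC1 (1.32 ± 0.54) and CTSH (1.24 ± 0.51), with limma adjusted p-values of 0.571, 0.655 and 0.643. All 7 glycosidases had a larger difference in the distal segment, by 0.010 (GLA) to 2.19 (NEU1), while 6 of 8 proteases had a smaller one. The difference was larger in the distal segment for 18 of 30 members, against 56.6% of all tested probe sets. Over the 30 members the median was 0.21, against 0.083 over all tested probe sets, and it was -0.17 without the arrays of animal 88, -0.072 with array quality weights and -0.065 with only the animals that gave both segments, so the members as a group had no settled sign here.

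The other axis of the design is the segment. In antibiotics-treated piglets 11 of the 30 members were higher in the distal than in the proximal intestine at an adjusted p under 0.05 and none was lower, where 5.25% of all tested probe sets passed in either direction and 3.15% were higher. The 11 were NEU1, GUSB, GLB1, AGA, FUCA1 and HEXA among the glycosidases, CTSH among the proteases, PSAP, NPC1, LAMP2 and SCARB2. The mean was higher in the distal segment for 29 of 30 members, CTSK being the exception, where 55.3% of all tested probe sets had a higher mean, with a median difference of 1.37 against 0.054 over all tested probe sets. For 18 members every distal array stood above every proximal array and for none below, against 7.69% and 4.7% of all tested probe sets.

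NEU1 had the largest difference, 3.83 ± 0.58 (SE), a 14.2-fold higher signal in the distal segment (limma adjusted p = 0.00108). GUSB stood at 11.53, 10.18, 11.00 and 9.96 on the antibiotics proximal arrays of animals 86, 87, 95 and 98, each at least 1 log2 unit below the distal values given above, and was higher in the distal segment by 2.88 ± 0.54 (adjusted p = 0.00505). GLB1 stood at 10.23, 9.52, 10.36 and 9.26 on those proximal arrays and AGA at 10.01, 9.56, 10.22 and 10.85, and both were higher in the distal segment, by 1.58 ± 0.34 and 1.64 ± 0.39 (adjusted p = 0.0116 and 0.0229). FUCA1 stood at 12.25, 11.06, 12.15 and 10.74, and its distal level was higher by 2.10 ± 0.57 (adjusted p = 0.0456, and 0.0565 with the animal as a fixed replicate block). HEXA had means of 11.34 ± 0.41 (SD, n = 4) in the proximal and 12.93 ± 0.38 in the distal segment (adjusted p = 0.0475), and it passed in 0 of the 8 fits that left out 1 antibiotics array. Of the 7 measured glycosidases GLA (1.53 ± 0.66, adjusted p = 0.244) was the one that did not pass.

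CTSH, an aminopeptidase of the cathepsin family, stood at 14.78, 14.40, 14.28 and 14.56 on the antibiotics distal arrays and at 11.81, 12.51, 12.69 and 12.41 on the antibiotics proximal arrays. Its distal level was higher by 2.15 ± 0.36 (SE; limma adjusted p = 0.00253). The other proteases did not pass. PSAP stood at 13.13, 12.85, 12.50 and 12.92 on the distal and at 11.30, 9.99, 10.80 and 9.56 on the proximal arrays, a difference of 2.44 ± 0.55 (adjusted p = 0.0157). NPC1 stood at 9.99, 9.56, 9.95 and 9.72 against 8.92, 8.25, 7.88 and 7.62, a difference of 1.64 ± 0.38 (adjusted p = 0.0199). The distal and proximal arrays of these 3 genes did not overlap. LAMP2 differed less in size, with proximal values of 12.79, 12.76, 12.55 and 12.49, but its arrays were so alike that the difference of 0.88 ± 0.16 passed (adjusted p = 0.0047). The other probe sets of LAMP2 differed by 0.74, 0.70 and 0.64 and did not pass (limma adjusted p = 0.2848, 0.2199 and 0.5325). SCARB2 stood at 11.84, 11.17, 11.40 and 12.35 in the distal and at 9.91, 10.12, 10.80 and 10.39 in the proximal segment, a difference of 1.39 ± 0.35 (adjusted p = 0.0322). None of the 12 other tested probe sets of members with more than 1 passed in this comparison. When a gene's probe sets were averaged, LAMP2, SCARB2 and FUCA1 did not pass (limma adjusted p = 0.0849, 0.435 and 0.079). In that fit 8 members were called, where 5.2% of all tested genes and probe sets were.

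The count of 11 depended on single arrays. It was 5 to 9 when 1 of the 8 antibiotics arrays was left out, with 5 (GLB1, GUSB, NEU1, CTSH and LAMP2) without the distal array of animal 85 and 7 without the distal array of animal 95, the proximal array of animal 87 or the proximal array of animal 95. GLB1, GUSB, NEU1, CTSH and LAMP2 passed in all 8 of these fits, PSAP in 7, NPC1 and SCARB2 in 4, AGA in 3, FUCA1 in 1 and HEXA in 0. Over these 8 fits 3.06% to 5.53% of all tested probe sets passed. The count was also 5 with no filter on low signal, where 1.81% of all probe sets passed. With only the animals that gave both segments it was 5, where 3.57% passed. The signal of 5′ control probe sets minus that of 3′ ones is a sign of RNA quality. It was -5.72 to -3.54 on the antibiotics distal and -4.35 to -2.95 on the antibiotics proximal arrays. With this difference as a covariate 6 members passed, where 2.85% of all tested probe sets did.

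Markers of cell types differed between the same arrays. Of the 12 epithelial markers 9 had a lower mean in the distal segment of treated piglets, and APOA4, an apolipoprotein of fat absorption, and SLC5A1, the glucose transporter, were lower at an adjusted p under 0.05 (limma, -3.01 and -3.46, adjusted p = 0.00304 and 0.00416). The mean level of the 12 was 12.40 to 12.69 on the antibiotics distal and 13.13 to 13.76 on the antibiotics proximal arrays. All 6 measured macrophage markers had a lower mean in the distal segment, C1QC was lower by the same test (-2.46), and the mean level of the 6 was 5.62 to 6.75 against 6.48 to 8.17. The part of these markers in the segment result was not tested.

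**Figure D3:**
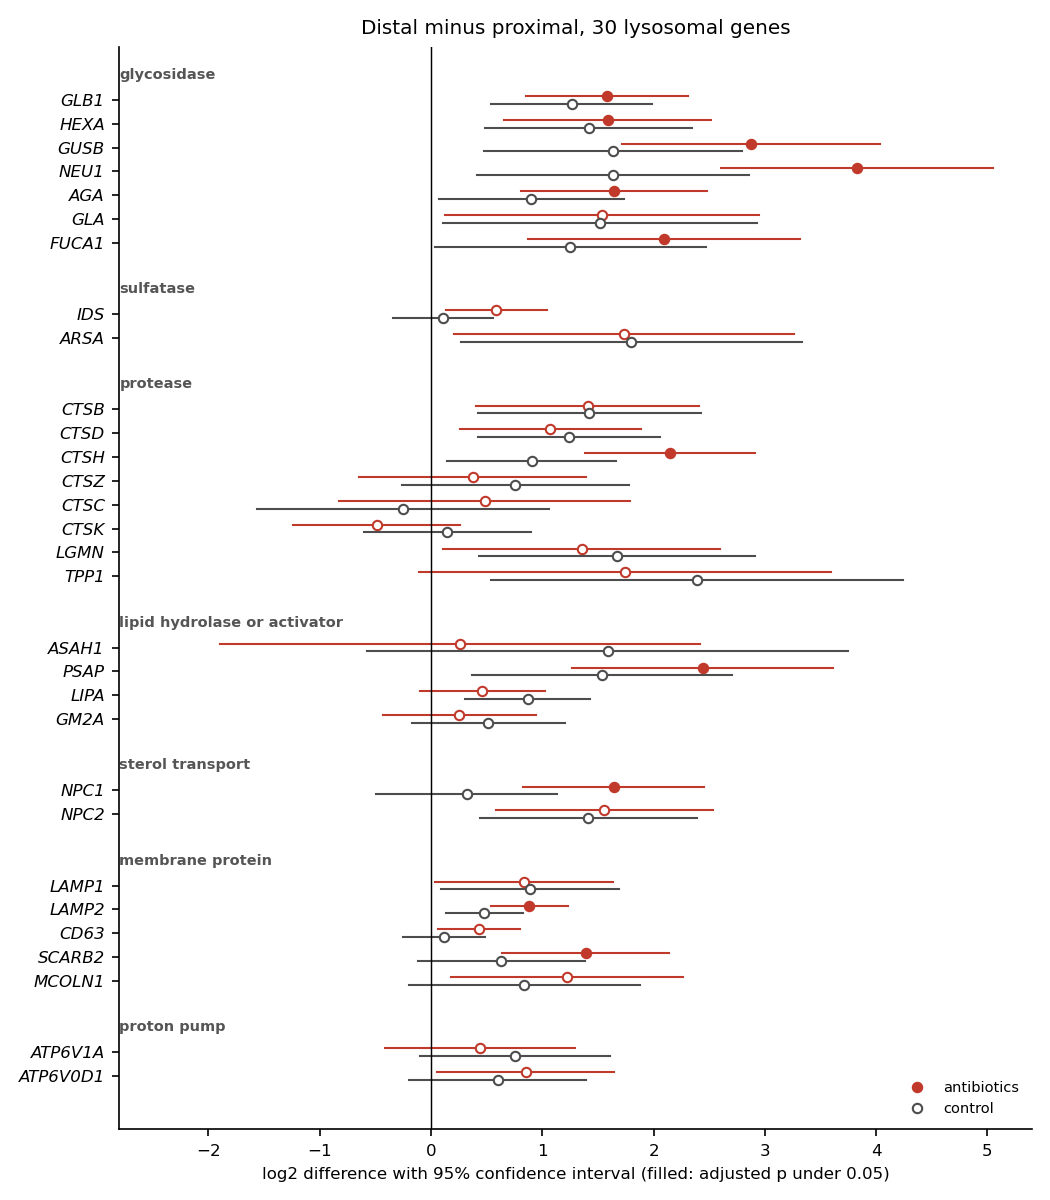
Difference between the distal and proximal segment (log2) in antibiotics-treated (red) and control (grey) piglets for the 30 tested lysosomal genes, grouped by role, with the 95% confidence interval from limma. Filled points passed an adjusted p of 0.05. In the treated piglets 11 points are filled, with NEU1 farthest right at 3.83, and in the controls none is.

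In control piglets no member passed by limma, with or without array quality weights, where 0.693% and 0.364% of all tested probe sets passed, in that order. At an unadjusted p under 0.05, 18 members were higher in the distal segment and none was lower, against 4.64% and 3.35% of all tested probe sets. The mean was higher in the distal segment for 29 of 30 members, CTSC being the exception, where 49% of all tested probe sets had a higher mean, with a median of 0.90 against -0.0076 over all tested probe sets. The segments did not overlap for 4 members, GLB1, CTSD, LIPA and LAMP2, all higher in the distal segment, against 3.93% of all tested probe sets in either direction.

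On the control distal and control proximal arrays of animals 83, 88, 89 and 92, GLB1 stood at 10.06, 9.94, 11.07 and 10.78 and at 8.41, 9.39, 9.81 and 9.18. The distal value was higher in each animal, and the difference was 1.26 ± 0.34 (SE; limma adjusted p = 0.194). PSAP stood at 10.63, 10.21, 13.23 and 12.32 against 9.50, 9.98, 10.08 and 10.68, and CTSH at 12.55, 13.20, 14.35 and 14.20 against 12.42, 12.53, 13.33 and 12.42. Both genes had a gap between segments of over 1 in animals 89 and 92, and PSAP also in animal 83. TPP1 had the largest mean difference among the members, 2.39 ± 0.87, with a proximal value of 4.47 for animal 83. The test of the difference between treatments in this segment gap is the same as that of the antibiotic difference between segments above, in which no member passed.

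The 7 animals with both segments gave the gap within an animal. NEU1 was higher in the distal segment in 7 of 7, by 2.54, 3.85 and 4.16 in the treated animals 86, 87 and 95, and by 1.27, 1.44, 2.12 and 1.70 in the control animals 83, 88, 89 and 92. The gap was larger in each treated than in each control animal. GLB1, HEXA, AGA, CTSD, CTSH, LGMN, PSAP and LAMP2 were also higher in the distal segment in all 7 animals, so that 9 of 30 members were, where 4.34% of all tested probe sets were. By animal, 25, 29 and 27 of the 30 members were higher in the distal segment in the treated animals and 29, 25 and 27 in the control animals 83, 89 and 92. Over all tested probe sets the share was 49.2%, 61.4% and 53.5% in these treated and 49%, 51.4% and 42% in these control animals. In control animal 88 only 14 members were, against 48.5% of all tested probe sets, with a median gap of -0.023, against 0.65 to 1.61 in the other animals. This is the animal whose proximal array carried FABP6 at 7.40. Without its arrays the median segment difference of the controls was 1.40 and still no member passed.

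The lysosomal genes varied together from piglet to piglet within the groups. After each group's mean was taken off, the median correlation between 2 members over the 16 arrays was 0.51 (from -0.59 to 0.96), and 391 of 435 pairs (89.9%) were above 0. Over all pairs of tested probe sets the median was 0.013 and 51.2% were above 0. The arrays share their normalization, and 14 of the 16 share an animal with another array, so these values are a description. Against the median of the other members, CTSB (0.97), FUCA1 (0.95), GLB1 (0.95), LGMN (0.94), TPP1 (0.93), GUSB (0.91), CTSC (0.90) and ARSA (0.90) ran closest, and 13 of 30 members had a correlation above 0.8, where 1.66% of all tested probe sets had one that high with the members' median. Every role but the proton pump had a member among these 13. NPC1 (0.0064), LAMP2 (-0.026), GM2A (0.28) and ATP6V1A (0.28) did not follow the others.

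**Figure D4:**
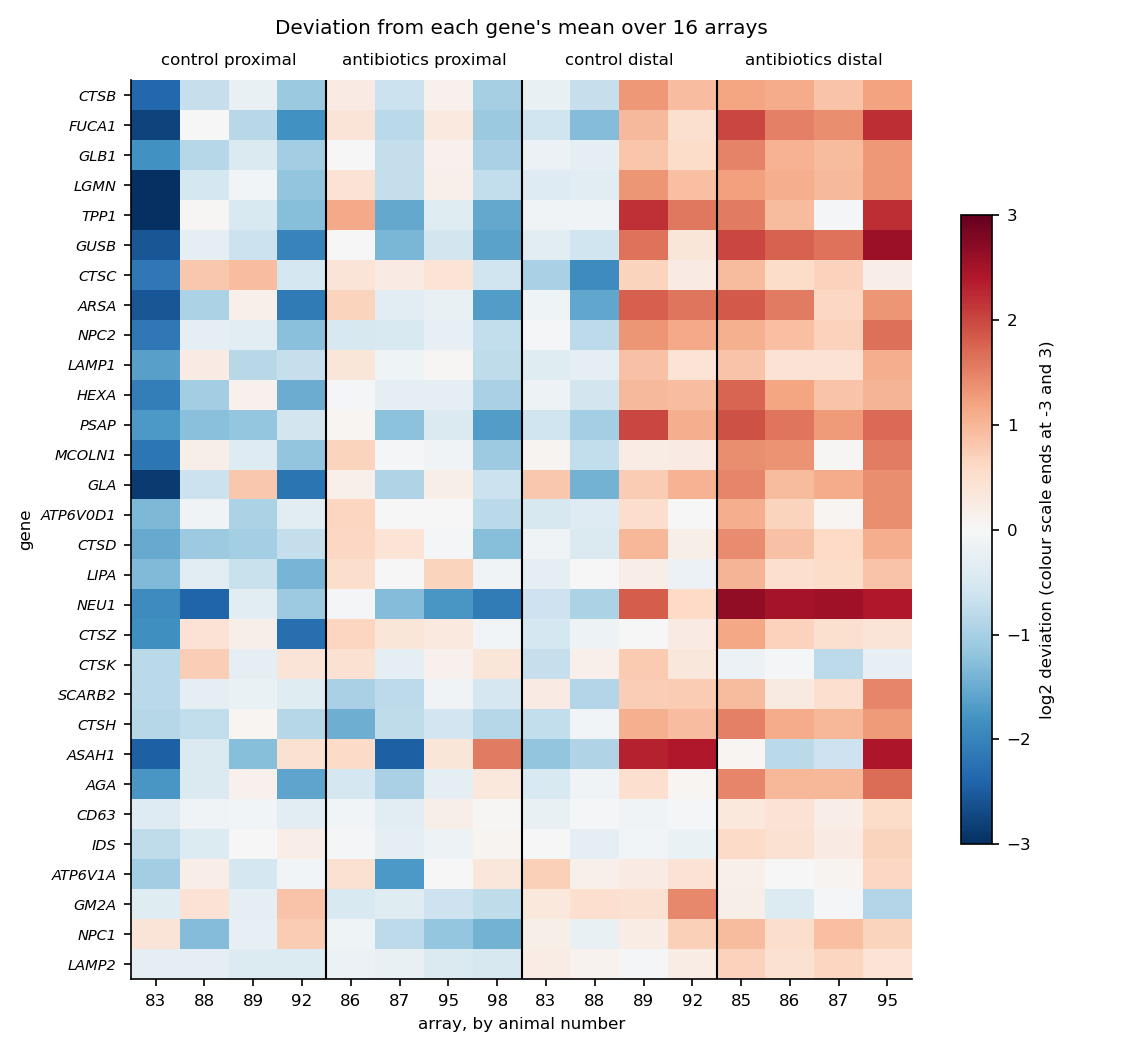
Deviation of each of the 30 lysosomal genes (rows, ordered by their correlation with the other members) from its mean over 16 arrays (columns, by group and animal number), in log2 units. Red is higher and blue lower. The control proximal array of animal 83 is blue for 29 of 30 genes, the control distal arrays of animals 89 and 92 are red for 26 and 27, and the antibiotics distal arrays are red for 26 to 29.

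The other genes of the pathway were followed by lists fixed by role. Of the proton pump subunits outside the 37 genes, 10 were tested and 9 had a higher mean with antibiotics in the distal segment, with a median of 0.56. The groups of 5 did not overlap and 1 rose, where 6.4% of all tested probe sets stood apart in the higher direction and 1.02% rose. This was ATP6V1C1, a subunit of the pump's cytosolic part. It stood at 12.247, 12.001, 12.506 and 12.414 on the antibiotics distal arrays and at 11.044, 11.152, 11.485 and 11.269 on the control distal arrays, a difference of 1.05 ± 0.23 (SE; limma adjusted p = 0.0263). In treated piglets 4 of the 10 subunits were higher in the distal than in the proximal segment, against 3.15% of all tested probe sets.

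Of 14 tested genes that sort enzymes to the lysosome, 10 had a higher mean with antibiotics in the distal segment and 1 rose, against 1.02% of all tested probe sets. This was GNPTG, a subunit of the enzyme that starts the mannose phosphate tag, at 7.86, 7.54, 7.45 and 8.32 with antibiotics and 5.47, 6.29, 6.51 and 6.32 without, a difference of 1.65 ± 0.31 (SE; limma adjusted p = 0.0113). GNPTAB, which encodes the other subunits of that enzyme, and NAGPA, which uncovers the tag, differed by 0.94 ± 0.30 and 1.43 ± 0.43 and did not pass (adjusted p = 0.122 and 0.103). In treated piglets these 3 genes and the mannose phosphate receptor M6PR were higher in the distal than in the proximal segment, GNPTG by 2.33 ± 0.31 (adjusted p = 3.9e-04), and no other of the 14 passed, where 3.15% of all tested probe sets were higher.

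The remaining lists gave no call with antibiotics in the distal segment. Of 17 other lysosomal hydrolases 7 had a higher and 10 a lower mean, with a median of -0.062 and 5 at an unadjusted p under 0.05 (2 higher, 3 lower). Of 12 other lysosomal membrane proteins 8 were higher in the mean (2 at an unadjusted p under 0.05), of 8 genes of lysosomal signalling and transcription 6 (none), and of 15 autophagy genes 13 (2, one of them lower). Of all tested probe sets 50.4% had a higher mean and 15.8% an unadjusted p under 0.05 in either direction. Within groups, the 17 hydrolases had correlations from -0.37 (ACP5) to 0.97 (PLBD2) with the median of the members over 16 arrays. Between the segments of treated piglets the 17 hydrolases had calls in both directions, with 11 of 17 means higher in the distal segment. SCPEP1, a serine carboxypeptidase, PRCP, a prolylcarboxypeptidase, and GGH, the gamma-glutamyl hydrolase of folates, were higher there by 3.12, 1.26 and 1.66 (limma adjusted p = 0.0039, 0.0115 and 0.011), and HYAL1, a hyaluronidase, was lower (-1.87, adjusted p = 0.0176). In control piglets GGH was higher in the distal segment by 2.27 (limma adjusted p = 0.00447). In the proximal segment no gene of these 6 lists and of the endocytosis list below passed. An unadjusted p under 0.05 was found for 3 membrane proteins, 2 hydrolases, 2 endocytosis genes, 1 pump subunit and 1 autophagy gene. Of all tested probe sets 12.9% had one in that segment.

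Genes known for protein uptake in enterocytes were followed in the same way. Of 11 tested, 9 had a higher mean with antibiotics in the distal segment, with a median of 0.64, and none passed. At an unadjusted p under 0.05 there were 3, against 15.8% of all tested probe sets in either direction. DAB2, an adaptor for endocytic receptors, stood at 14.25 ± 0.35 (SD, n = 4) on the antibiotics distal and at 11.90 ± 0.72 on the control distal arrays, a difference of 2.34 ± 0.99 (SE) that did not pass (limma adjusted p = 0.255). AMN, the anchor of the cubilin receptor, stood at 9.89 ± 0.27 and 8.70 ± 1.33 on the same arrays. Its difference was 1.18 ± 1.10 (SE) and did not pass (limma adjusted p = 0.661). DAB2 and AMN were picked by hand from the 11 genes. Within groups, AMN and DAB2 had correlations of 0.86 and 0.66 with the median of the members over 16 arrays, where the 11 genes ranged from -0.18 (AP2M1) to 0.89 (LRPAP1). On the control proximal arrays of animals 83 and 92, where the members were lowest, AMN stood at 2.54 and 3.66 and DAB2 at 7.46 and 7.29, against at least 6.50 and 11.36 on all other arrays.

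**Figure D5:**
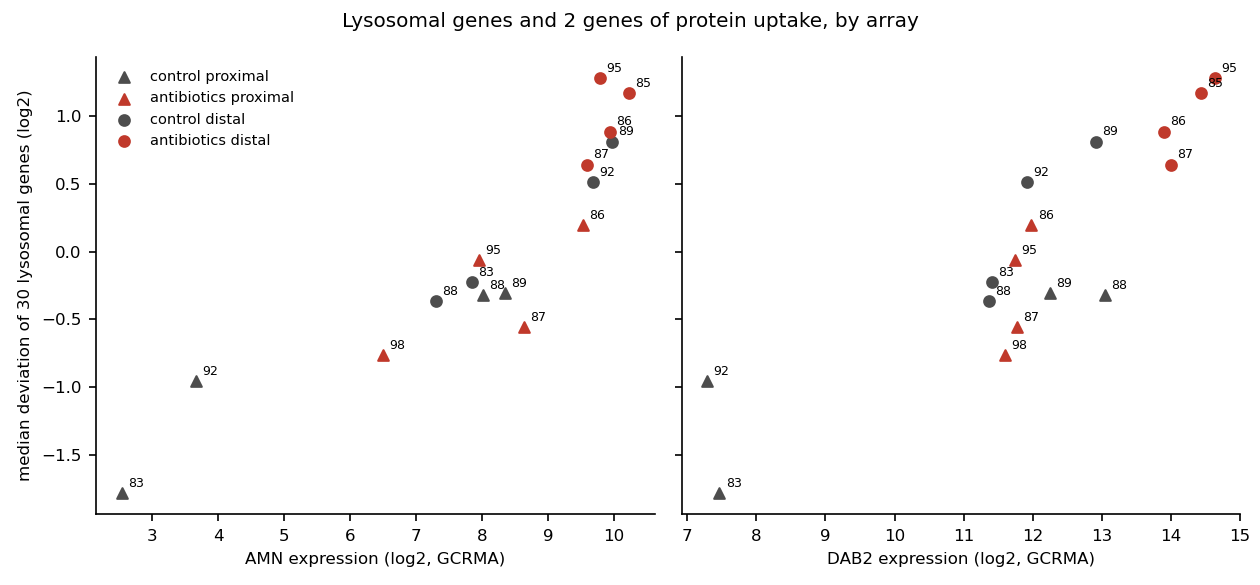
Median deviation of the 30 lysosomal genes from their means over 16 arrays (log2, vertical axis) against the expression of AMN (left) and DAB2 (right; log2, GCRMA) on each array, labelled by animal. Triangles are proximal and circles distal, red antibiotics and grey control. The control proximal arrays of animals 83 and 92 lie at the lower left of both panels, with medians of -1.78 and -0.96, and the antibiotics distal arrays at the upper right, with medians of 0.64 to 1.28.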

How the data were processed

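The authors deposited log2 expression values for 16 arrays. Per the submitters' processing notes they used GCOS 1.2, GCRMA and limma; no parameter is given in the sources used here. Of 24123 probe sets, 124 controls were left out and 11538 that stood above 5 on at least 4 of 16 arrays were tested. Of the non-control probe sets, 10069 name 1 gene, 198 name several and 13732 name none; a gene was its probe set of highest mean among those with that gene alone. One limma fit (limma 3.58.1, R 4.3.3) held the 4 groups, with p-values adjusted over all tested probe sets; it was tested on simulated data. Figures used matplotlib 3.10.9. The members and lists were chosen with earlier results of these data known. Values on every array are given for members that passed with antibiotics, the next 8 (distal) and the 4 (proximal) by moderated t, and the 10 of largest t between segments. Segments are paired by the number in the sample names. Residuals of an animal's 2 arrays correlated by 0.029 to 0.53, above 0.1 in 5 of 7 animals. The number of arrays limits the precision. Promoter and protein sequences were not analysed here.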

Additional observations from a re-analysis of the deposited data

Results flagged for a closer look

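Among 16 lysosomal genes in 4 groups of 4 arrays each (64 groups of values), 2 single arrays stood far from the rest of their group, where chance flags about 1 in 20 groups. CTSH stood at 13.33 on the control proximal array of animal 89, and the nearest of the other 3 arrays was 12.53. GM2A stood at 9.83 on the control distal array of animal 92, and the nearest of the others was 8.88. Both are the highest value of their group.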

How the results depend on the processing

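With antibiotics in the distal segment, no member was called with no filter, with only animals that gave both segments, with the 5′ to 3′ difference as a covariate, without animal 83 or without animal 88 (0 each; adjusted p of NEU1 0.153, 0.114, 0.065, 0.158 and 0.0767), 14 with array quality weights, 2 with only the compared arrays and 0 to 1 without 1 array. In these last 3 kinds of fit 14.4%, 3.73% and 0.919% to 3.06% of all tested probe sets were called. In the proximal segment 4 members were called with array quality weights, 1 without animal 88 and 0 to 2 without 1 array. The shares of all tested probe sets were 8.24%, 4.58% and 0.0173% to 4.82%. Between segments in treated piglets 5 members were called with no filter, 5 with animals that gave both segments and 6 with the 5′ to 3′ covariate. With array quality weights 18 were called, and 5 to 9 without 1 array. Of all probe sets tested in these settings 1.81%, 3.57%, 2.85%, 26.1% and 3.06% to 5.53% were called, in the same order. The median fell to 0.98 with the mean of all probe sets. The median of the antibiotic difference between segments turned to -0.072 with array quality weights, -0.065 with animals that gave both segments and -0.17 without animal 88. The cause of these shifts was not tested, apart from the fewer arrays or the more probe sets that some settings hold by construction. With the animal as a replicate block, 12 (random, correlation 0.17) and 10 (fixed) members were called between segments in treated piglets. Of all tested probe sets 6.86% and 5.16% were called in these fits. FUCA1 missed the threshold under the fixed block (limma adjusted p = 0.0565). NEU1 kept its call with antibiotics (adjusted p = 0.0421, random block), and no other call of a member named in the report was lost. Leaving out animals 83 and 88 was chosen after seeing the data. Signal close to the lowest value on every array limits what can be said of MAN2B1. The search of promoters for the binding motif of TFEB was not run.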

Other observations

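TFEB, the transcription factor known for driving lysosomal genes, did not pass the filter and was not tested. It stood at 3.65, 3.24, 3.55 and 2.73 on the antibiotics distal arrays of animals 85, 86, 87 and 95, and at 2.18 to 2.44 on the other 12 arrays, close to the lowest value in the data of 2.14. Values so low are near the background of the array.

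Among genes outside every list, chosen after their values were seen, GRN, the precursor of the granulins that act in lysosomes, and GLMP, a glycoprotein of the lysosomal membrane, had the highest within-group correlations with the median of the 30 members, 0.94 and 0.93 over 16 arrays.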
